A study of Homo sapiens with 6 samples.

Results

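The MCM (minichromosome maintenance) genes were examined in HCT116 cells, a human colorectal carcinoma line, after knockdown of STRIP2, which encodes a striatin-interacting protein of STRIPAK complexes. The family was taken as 10 gene symbols (MCM2 to MCM10 and MCMBP) among the 61806 genes of the deposited table, and each symbol matched 1 row. The members were chosen by name as a family, after MCM5, MCM4 and MCM3 had been seen among the strongest rises of the same comparison. Their changes between the groups, and how many lay past the threshold of the fit over all genes, are therefore a description and no test of the family. The samples were 3 libraries of cells that received non-targeting siRNA as control (si-NC, genotype labelled wildtype) and 3 of cells given siRNA against STRIP2 (si-STRIP2, genotype labelled STRIP2 knockdown). All came from the same cell line in the same culture medium. The dose, the sequence of the RNA and the time after its delivery are not given in the sources used here. The sample titles do not say whether the si-STRIP2 libraries share the same siRNA. Whether replicate libraries stem from independent cultures is not stated, so p-values measure only the spread between these libraries, which may be technical.

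MCM2 to MCM7 form the ring that unwinds DNA at the replication fork. In G1 the origin recognition complex, CDC6 and CDT1 load pairs of these rings onto origins, and in S phase CDC45 and the GINS complex join each ring to make the active helicase, with MCM10 needed for its start. MCM8 and MCM9 are relatives that work together in homologous recombination, MCM10 and MCMBP lack the helicase fold, and MCMBP binds free MCM subunits. Transcription of the ring genes is under E2F control in cycling cells, and MCM proteins serve as proliferation markers in colorectal epithelium.

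Promoters of 8 members, 11 sequences in all, were found in a RefSeq table of GRCh38.p14 that gives 250 bases before and 50 after each start. MCM4 and MCM5 had no entry. They were searched on both strands for 4 forms of the E2F word (TTTCCCGC, TTTCGCGC, TTTGCCGC and TTTGGCGC) and for CCAAT. The windows of 30 bases around each E2F word are shown because E2F control of these genes is textbook knowledge and their promoters can be compared by these letters. Each is written 5′ to 3′ along the gene, and capitals mark the E2F word, or a pair of words overlapping on opposite strands.
MCM2 (chr3:127598404-127598433, plus strand): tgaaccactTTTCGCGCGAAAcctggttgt
MCM3 far (chr6:52284898-52284927, minus strand): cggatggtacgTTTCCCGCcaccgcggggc
MCM3 near (chr6:52284728-52284757, minus strand): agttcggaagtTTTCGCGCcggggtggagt
MCM6 far (chr2:135876575-135876604, minus strand): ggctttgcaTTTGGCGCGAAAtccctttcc
MCM6 near (chr2:135876513-135876542, minus strand): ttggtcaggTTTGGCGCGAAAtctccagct
MCM7 far (chr7:100101566-100101595, minus strand): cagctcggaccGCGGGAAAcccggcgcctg
MCM7 near (chr7:100101388-100101417, minus strand): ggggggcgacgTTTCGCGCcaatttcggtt
MCM8 (chr20:5950667-5950696, plus strand): ggatcactgaaGCGCCAAAaaagaatttag
MCMBP (chr10:119872834-119872863, minus strand): ggcggcggctaTTTCCCGCcattgtgcgaa

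The 4 ring genes with an entry all held an E2F word. For MCM7 it lay in the entry that starts at base 100101397, and the entries starting at 100100754 and 100100529 held 0. MCM6 carried the same overlapping pair of words at 152 and at 90 bases before the start, and MCM2 a palindromic pair that began at base 3 of the transcript. In MCM3 and MCM7 the near word began 4 and 9 bases before the start. Among the genes outside the ring, MCM8 held a word from base 27 of the transcript, MCMBP held 1 in 1 of its pair of entries, and in MCM9 and MCM10 these letters were not found. An E2F word was present in 3.31% of the 35116 promoters of the table. Counted per gene, it was present in 3.99% of the 27305 genes with an entry, and in 20 of the 49 genes of the replication lists that had one (40.8%). CCAAT was found in 6 of the 8 members, MCM2 and MCMBP being the exceptions, in 39.7% of all genes with an entry and in 34.6% of all promoters. The entry of MCM7 with these words starts 543 bases inside the 5′ end of the deposited gene, and that of MCMBP 19713 bases inside it. A match of letters describes the window and shows no binding.

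The libraries held 17184963 to 21721218 counts, and the counts of members ranged from 337 to 8963 per library. STRIP2 itself had 3.19, 3.77 and 3.81 FPKM (fragments per kilobase of exon, scaled to the library total) in si-NC and 2.71, 2.53 and 2.58 FPKM in si-STRIP2, a log2 fold change of -0.46 (SE 0.083, edgeR adjusted p = 1.62e-05). Of 9 markers of colorectal epithelium, EPCAM, KRT8 and KRT18 lay between 122 and 213 FPKM in every library, and CDX1, VIL1 and CEACAM5 lay under 0.5 FPKM in every library. The summed level of the 9 was 556 to 578 FPKM in si-NC and 508 to 522 FPKM in si-STRIP2. Of the 6 tested, 4 fell (EPCAM, KRT18, CDH1 and KRT20), 1 rose (CDX2) and KRT8 was not called. Among all genes tested, 27.0% were called lower and 27.8% higher. CDH1, the epithelial cadherin, fell from 36.6 ± 1.43 to 24.2 ± 0.318 FPKM (SD, n = 3; log2 fold change -0.60, SE 0.040, edgeR adjusted p = 1.57e-14). KRT20, at 0.24 to 0.72 FPKM, had a log2 fold change of -1.01 (edgeR adjusted p = 0.00935), a call lost without si-NC replicate 1 (edgeR adjusted p = 0.0531) or without si-STRIP2 replicate 2 (edgeR adjusted p = 0.0519). CDX2 had a log2 fold change of 0.38 (edgeR adjusted p = 0.00285), and these markers were named after their values were seen. Their part in the MCM levels was not tested. All 7 leukocyte markers, all 4 endothelial markers and 5 of 6 fibroblast markers lay under 0.5 FPKM in every library, the exception being COL1A1 at 1.89 to 2.55 FPKM. Of the endothelial markers KDR, at 0.13 to 0.37 FPKM, fell (log2 fold change -1.07, edgeR adjusted p = 0.000528). Fold changes are from an edgeR fit over 15687 genes, and a gene was called at an adjusted p under 0.05.

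All 10 members passed the filter on low counts. In si-STRIP2 cells 8 were called higher and 0 lower, and MCM9 and MCMBP were not called. Over all genes tested, 54.8% were called, 27.8% higher and 27.0% lower, and since the members were chosen on this contrast nothing is read from their count. For 9 members, all but MCM9, the FPKM ranges of si-NC and si-STRIP2 were separate, where 58.6% of all genes tested had separate ranges. The median log2 fold change was 0.93 over the 6 ring genes and 0.26 over the other 4 members, and 0.014 over all genes tested. In bulk RNA, a larger share of cells in S phase and more RNA per cell cannot be told apart.

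MCM5 differed most. The gene (ENSG00000100297, chromosome 22, 35400134 to 35425431, plus strand) encodes the ring subunit that forms the gate with MCM2. Its level was 7.24, 7.26 and 7.53 FPKM in si-NC and 21.23, 21.56 and 20.28 FPKM in si-STRIP2. Every si-STRIP2 library was far above every si-NC library, and the libraries within each group lay close together. The mean went from 7.34 ± 0.162 to 21.02 ± 0.665 FPKM (SD, n = 3), a 2.86-fold higher level and a log2 fold change of 1.51 (SE 0.044). Of the 15687 genes tested, 57 had a larger log2 fold change.

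MCM4 followed. It encodes a subunit whose N-terminal tail is phosphorylated by the CDC7 kinase at origin firing, and lies on chromosome 8 (ENSG00000104738, 47960185 to 47978160, plus strand). Its level was 11.84, 12.48 and 12.19 FPKM in si-NC against 31.11, 31.82 and 31.52 FPKM in si-STRIP2. The means were 12.2 ± 0.320 and 31.5 ± 0.356 FPKM (SD, n = 3), 2.58-fold apart, with a log2 fold change of 1.37 (SE 0.040). The distance between the groups was many times the spread within either.

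MCM3 (ENSG00000112118, chromosome 6, 52264014 to 52284881, minus strand), the neighbour of MCM5 in the ring, was at 41.53, 41.97 and 39.90 FPKM in si-NC and at 84.03, 84.96 and 80.71 FPKM in si-STRIP2. Its log2 fold change was 1.01 (SE 0.040). MCM2 (ENSG00000073111, chromosome 3, 127598410 to 127622436, plus strand), which also carries a histone-binding N-terminal tail, was at 15.42, 15.11 and 15.60 FPKM in si-NC. In si-STRIP2 it was at 26.81, 28.65 and 27.55 FPKM, a log2 fold change of 0.84 (SE 0.044). Both genes were higher in each si-STRIP2 library than in any si-NC library, by 2.02-fold and 1.79-fold on the means of the fit.

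MCM6 (ENSG00000076003, chromosome 2, 135839626 to 135876443, minus strand), the subunit that CDT1 contacts during loading, was at 34.53, 35.89 and 33.01 FPKM in si-NC and at 55.34, 57.72 and 57.68 FPKM in si-STRIP2. The log2 fold change was 0.72 (SE 0.041), or 1.65-fold. MCM7 (ENSG00000166508, chromosome 7, 100092728 to 100101940, minus strand), the subunit that is marked with ubiquitin when the helicase is taken off DNA, was at 94.08, 90.49 and 90.67 FPKM in si-NC. It was at 106.02, 111.44 and 107.36 FPKM in si-STRIP2, a log2 fold change of 0.24 (SE 0.041), or 1.18-fold. MCM7 was thus the ring gene with the smallest difference, although its groups did not overlap. The miRNA genes MIR25, MIR93 and MIR106B lie within MCM7 on its strand. MIR25 held 7 counts over the 6 libraries and the other two 0, in libraries made from poly(A) RNA.

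**Figure D1:**
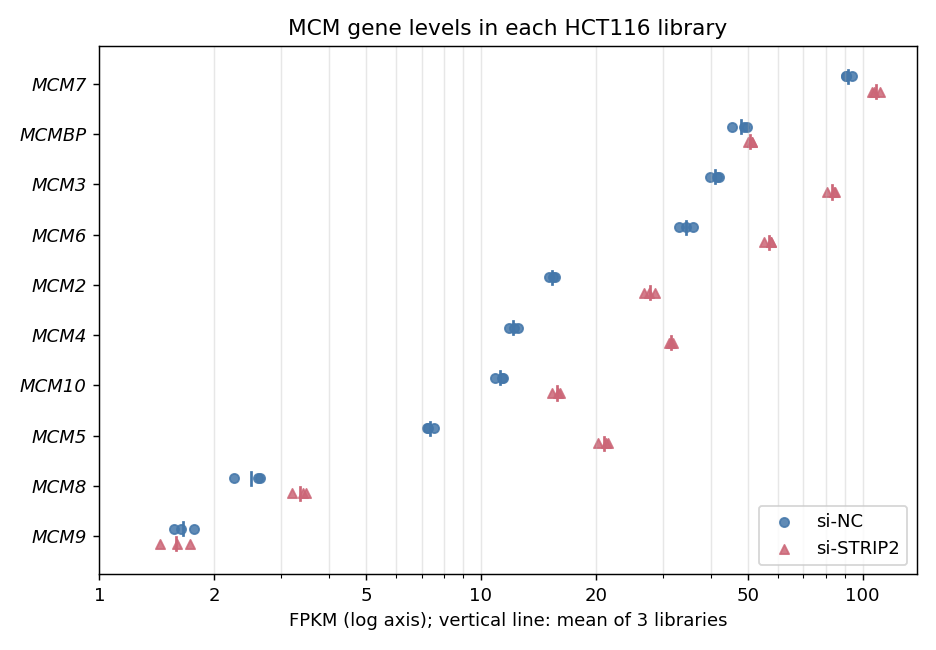
FPKM of each MCM gene (log axis) in the 3 si-NC libraries (circles) and the 3 si-STRIP2 libraries (triangles), with a vertical line at each group mean, ordered by the si-NC level. MCM5 moves from 7.34 to 21.02 FPKM and MCM4 from 12.2 to 31.5 FPKM, while the points of MCM9 overlap.

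Outside the ring the median difference was smaller, but MCM10 and MCM8 differed more than the ring gene MCM7, at a log2 fold change of 0.24. MCM10 (ENSG00000065328, chromosome 10, 13161558 to 13211110, plus strand) was at 10.87, 11.40 and 11.33 FPKM in si-NC and at 16.12, 15.39 and 15.96 FPKM in si-STRIP2, a log2 fold change of 0.50 (SE 0.045). MCM8 (ENSG00000125885, chromosome 20, 5950652 to 5998977, plus strand) was at 2.25, 2.63 and 2.60 FPKM in si-NC and at 3.41, 3.49 and 3.19 FPKM in si-STRIP2, a log2 fold change of 0.44 (SE 0.075). Neither gene had overlapping groups.

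MCM9, the partner of MCM8 (ENSG00000111877, chromosome 6, 118813442 to 118935162, minus strand), was at 1.77, 1.64 and 1.57 FPKM in si-NC and at 1.44, 1.73 and 1.60 FPKM in si-STRIP2. The groups overlapped, and the log2 fold change was -0.07 (SE 0.081). ASF1A, a histone chaperone gene within the span of MCM9 on the other strand, held 379% as many counts as MCM9 and fell from 33.5 ± 3.25 to 25.7 ± 0.244 FPKM (SD, n = 3; log2 fold change -0.39, SE 0.052, edgeR adjusted p = 1.04e-07). Whether reads were counted by strand is not given in the sources used here, so the value of MCM9 is uncertain. The FPKM ratio of MCM8 to MCM9 lay between 1.27 and 1.66 in the si-NC libraries and between 1.99 and 2.37 in the si-STRIP2 libraries. With the lengths of principal transcripts in place of exonic sizes, chosen after the data were seen, it lay between 0.534 and 0.694 and between 0.833 and 0.994, below 1 in all 6 libraries and still separate between the groups.

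MCMBP (ENSG00000197771, chromosome 10, 119829404 to 119892556, minus strand) was at 49.79, 48.97 and 45.38 FPKM in si-NC and at 50.05, 51.23 and 51.24 FPKM in si-STRIP2. The groups did not overlap, but the highest si-NC library lay close to the lowest si-STRIP2 library, and the log2 fold change was 0.08 (SE 0.041). The mean level of the ring genes was 0.702 ± 0.0246 of the MCMBP level in the control libraries and 1.08 ± 0.0183 of it after knockdown (SD, n = 3). Relative to MCM10, the ring genes were at 3.01 ± 0.112 in the control libraries and 3.46 ± 0.154 after knockdown (SD, n = 3).

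The ring holds its 6 subunits in equal number, and their transcripts were compared per length. Summed over MCM2 to MCM7, FPKM came to 204.64, 203.2 and 198.9 in si-NC and 324.54, 336.15 and 325.1 in si-STRIP2. MCM7 was the most abundant and MCM5 the least abundant of them in all 6 libraries. MCM7 made up 45.4% ± 0.746 of the sum in the si-NC libraries and 32.9% ± 0.251 in the si-STRIP2 libraries (SD, n = 3). The share of MCM5 was 3.63% ± 0.134 and 6.40% ± 0.152, that of MCM4 6.02% ± 0.202 and 9.58% ± 0.115, and that of MCM3 20.3% ± 0.299 and 25.3% ± 0.535, in the same order. MCM6 held 17.04% ± 0.553 in si-NC and 17.3% ± 0.369 in si-STRIP2, a difference smaller than the spread between libraries. The ratio of the highest to the lowest ring transcript averaged 12.5 ± 0.478 over the si-NC libraries and 5.15 ± 0.151 over the si-STRIP2 libraries (SD, n = 3).

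**Figure D2:**
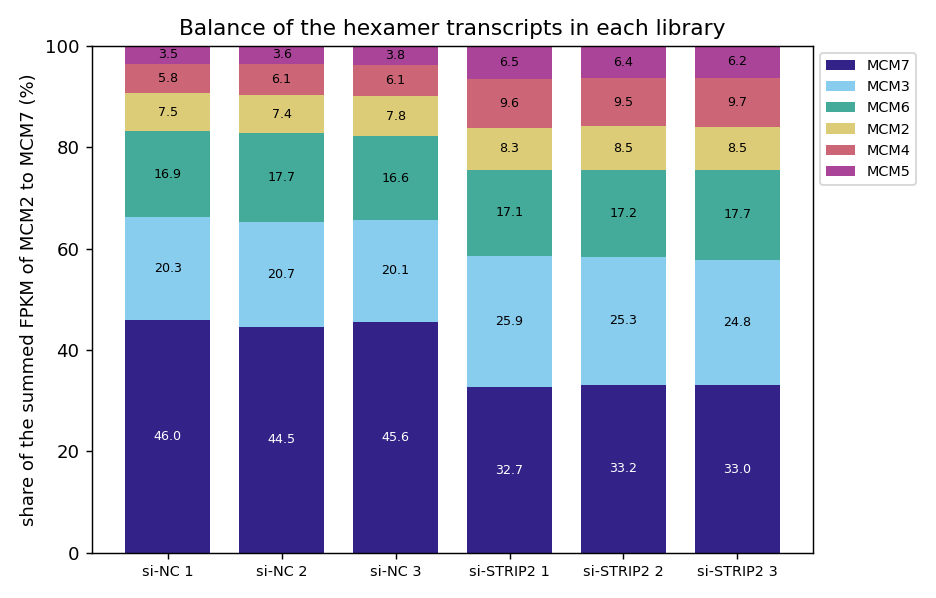
Share of each ring gene in the summed FPKM of MCM2 to MCM7 (percent, stacked to 100) in each of the 6 libraries. The MCM7 share is 45.4% on average in si-NC and 32.9% in si-STRIP2, and the shares of MCM3, MCM4 and MCM5 are larger in every si-STRIP2 library than in any si-NC library.

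In si-NC the order of levels in FPKM was MCM7, MCMBP, MCM3, MCM6, MCM2, MCM4, MCM10, MCM5, MCM8 and MCM9, and no neighbours in it overlapped in range. In si-STRIP2 the order was MCM7, MCM3, MCM6, MCMBP, MCM4, MCM2, MCM5, MCM10, MCM8 and MCM9, again with no overlap between neighbours. MCM3 and MCM6 stood below MCMBP in si-NC and above it in si-STRIP2, and MCM5 stood below MCM10 in si-NC and above it in si-STRIP2.

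The order depended on the length used. The deposited exonic size of MCM4 was 9852 bases and that of MCM5 7268 bases, 2.36 and 2.06 times the length of their principal transcripts in GENCODE 29, where that of MCM6 was 1.11 times. With principal lengths, chosen after the data were seen, MCM4 stood at 28.7 ± 0.763 FPKM in si-NC, above MCM2 at 20.01 ± 0.324 (SD, n = 3). MCM2 and MCM10 then overlapped in range, and MCM9 stood above MCM8 at 4.06 ± 0.248 against 2.56 ± 0.215 FPKM. The ratio of the highest to the lowest ring transcript became 9.01 ± 0.347 in si-NC and 4.46 ± 0.0403 in si-STRIP2, where MCM2 and no longer MCM5 was the lowest. In si-STRIP2, principal lengths put MCM6 at 63.0 ± 1.51 FPKM, below MCMBP at 73.1 ± 0.981 (SD, n = 3), so that MCM6 did not pass MCMBP. MCM4 and MCMBP overlapped there in range, as did MCM8 and MCM9. A length common to all libraries leaves the fold changes as they were.

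Genes that start beside a member on the other strand were then examined, within 1000 bases of its 5′ end in the deposited coordinates. Such head-to-head partners were found for 6 members, 1 each, and 3 of the 6 rose and 0 fell, where 27.8% of all genes tested were called higher and 27.0% lower. The RefSeq starts of MCM7 lie at least 543 bases, and those of MCMBP at least 18975 bases, inside the deposited ends. The partner of MCMBP thus rests on the deposited end. PRKDC, the catalytic subunit of DNA-dependent protein kinase, starts 7 bases from MCM4. It was at 12.66, 16.13 and 13.17 FPKM in si-NC and at 23.81, 23.31 and 23.70 FPKM in si-STRIP2, and rose by 0.75 on the log2 scale (SE 0.053, edgeR adjusted p = 5.66e-14). The rise of PRKDC was smaller than the difference of MCM4, at 1.37.

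SEC23IP, a gene of vesicle transport that starts 174 bases from MCMBP, rose from 18.6 ± 0.827 to 20.65 ± 0.416 FPKM (SD, n = 3; log2 fold change 0.15, SE 0.041, edgeR adjusted p = 0.00272). AP4M1, an adaptor complex subunit whose transcribed region overlaps that of MCM7, was at 1.78, 1.87 and 1.82 FPKM in si-NC and at 2.04, 2.86 and 2.24 FPKM in si-STRIP2 (log2 fold change 0.38, SE 0.113, edgeR adjusted p = 0.00525). Its call was lost without si-STRIP2 replicate 2, at a log2 fold change of 0.22 and an edgeR adjusted p of 0.109. AP4M1 held 2.25% as many counts as MCM7, and reads of the overlap cannot be assigned without strand. The overlap is one of deposited coordinates. AP4M1 starts at base 100101549, and the outermost RefSeq start of MCM7, at 100101397, would leave the regions apart.

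The other three partners were not called. TPRA1, 143 bases from MCM2, had a log2 fold change of 0.17 (SE 0.095, edgeR adjusted p = 0.132). TRMT6, a tRNA methyltransferase subunit 94 bases from MCM8, had one of 0.039 (SE 0.063, edgeR adjusted p = 0.623). ENSG00000253194, 392 bases from MCM9, overlaps it in the deposited coordinates, and reads of that overlap cannot be assigned without strand. The gene had a log2 fold change of -0.71 (SE 0.354, edgeR adjusted p = 0.0885) on 87 counts in all. Without si-NC replicate 2 this gene was called lower (log2 fold change -0.90, edgeR adjusted p = 0.0482).

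**Figure D3:**
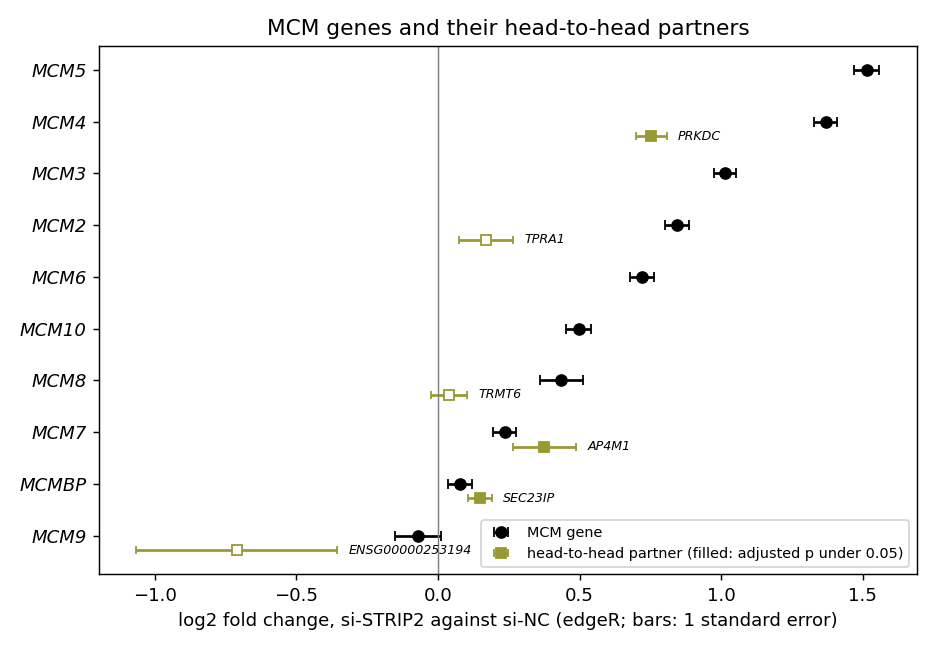
Log2 fold change of each MCM gene (black circles) and of its head-to-head partner (squares, filled where the adjusted p is under 0.05), with bars of 1 standard error. MCM5 lies at 1.51 and MCM4 at 1.37, and PRKDC, at 0.75, is the partner that lies farthest to the right.

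The other genes of replication were taken from 4 lists of 58 genes, none of them a member. Of the 58, 39 rose, 5 fell and 14 were not called, with a median log2 fold change of 0.23, where 27.8% of all genes tested were called higher, 27.0% lower, and their median was 0.014. Like the members, the lists were written with earlier results of these data known, and the counts are no independent evidence of a direction.

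Of the 10 genes of origin recognition and loading, 5 rose and 2 fell (median 0.16). The shares over all genes tested were 27.8% called higher and 27.0% lower. ORC1, the origin recognition subunit whose level varies through the cell cycle, rose most, from 8.41, 8.77 and 7.57 FPKM to 14.45, 17.32 and 16.37 FPKM (log2 fold change 0.95, SE 0.067, edgeR adjusted p = 4.58e-14). ORC4 fell from 8.69 ± 0.295 to 7.47 ± 0.142 FPKM (SD, n = 3; log2 fold change -0.22, edgeR adjusted p = 8.76e-05). The loaders themselves, named after their values were seen, went in opposite directions: CDT1 rose by 0.60 (SE 0.050, edgeR adjusted p = 2.79e-12) and CDC6 fell by 0.17 (SE 0.041, edgeR adjusted p = 0.000667) on the log2 scale.

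Of the 13 genes of helicase activation, 10 rose and 1 fell (median 0.41), beside 27.8% higher and 27.0% lower over all genes tested. GINS2, a subunit of the GINS complex, rose from 8.61, 7.84 and 7.56 FPKM to 17.85, 18.07 and 17.71 FPKM (log2 fold change 1.15, SE 0.058, edgeR adjusted p = 9.88e-18). DONSON, which helps to deliver GINS to the ring, fell from 14.9 ± 0.147 to 12.1 ± 0.518 FPKM (SD, n = 3; log2 fold change -0.30, SE 0.053, edgeR adjusted p = 9.71e-06).

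Of the 11 genes of fork progression and unloading, 5 rose and 1 fell (median 0.095). For this list and the next, the background was 27.8% called higher and 27.0% lower over all genes tested. TONSL, which reads newly made histones behind the fork, rose most (log2 fold change 0.79, SE 0.073, edgeR adjusted p = 4.13e-11). FAF1 fell (log2 fold change -0.11, SE 0.042, edgeR adjusted p = 0.0299), a call lost under 9 of 14 alternatives. Of the 24 genes of the polymerases, clamp and single-strand binding protein, 19 rose and 1 fell (median 0.30). LIG1, the ligase of Okazaki fragments, rose from 4.01 ± 0.350 to 7.45 ± 0.210 FPKM (SD, n = 3; log2 fold change 0.90, SE 0.052, edgeR adjusted p = 3.00e-16). POLD4 fell (log2 fold change -0.30, SE 0.128, edgeR adjusted p = 0.0487), and this call too was lost under 9 of 14 alternatives.

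**Figure D4:**
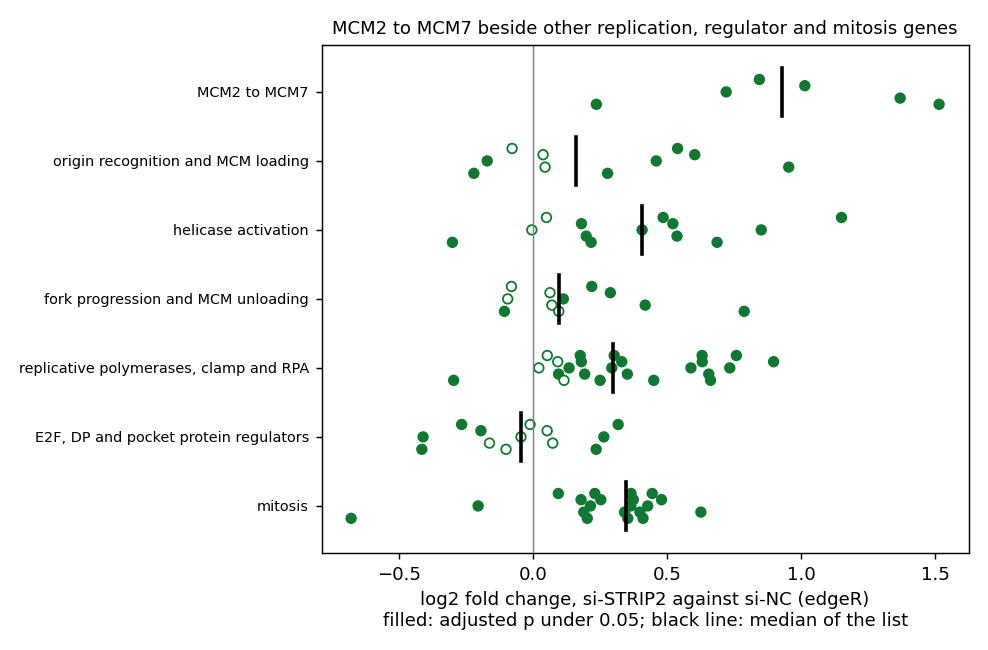
Log2 fold change of single genes in MCM2 to MCM7 and in 6 other lists (filled where the adjusted p is under 0.05), with a black line at each median. The median is 0.93 for the ring genes, 0.41 for helicase activation, 0.30 for the polymerases and clamp, and -0.046 for the E2F, DP and pocket protein genes.

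Of 13 E2F, DP and pocket protein genes, the regulators of MCM transcription, 3 rose and 4 fell, with a median log2 fold change of -0.046. These counts were near the background of 27.8% called higher and 27.0% called lower. TFDP1, a dimer partner of E2F proteins, rose most, from 63.7 ± 1.38 to 79.5 ± 0.984 FPKM (SD, n = 3; log2 fold change 0.32, SE 0.039, edgeR adjusted p = 2.09e-08). E2F6, a repressor of the family, fell most, from 13.4 ± 0.896 to 10.03 ± 0.580 FPKM (SD, n = 3; log2 fold change -0.42, SE 0.055, edgeR adjusted p = 8.43e-08). E2F1, named after its value was seen, rose by 0.26 on the log2 scale (SE 0.068, edgeR adjusted p = 0.00132). The other called genes of the list were also named after their values were seen. E2F4 had a log2 fold change of 0.23, TFDP2, the other DP gene, one of -0.41, E2F7 one of -0.27 and RB1 one of -0.20.

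Of 20 genes of mitosis, 18 rose and 2 fell, with a median log2 fold change of 0.35, where 27.8% of all genes tested were called higher, 27.0% lower, and their median was 0.014. The kinase TTK rose most (log2 fold change 0.63, SE 0.042, edgeR adjusted p = 1.62e-14), and ANLN, the actin-binding protein of the cleavage furrow, fell from 35.4 ± 1.12 to 22.1 ± 0.375 FPKM (SD, n = 3; log2 fold change -0.68, SE 0.040, edgeR adjusted p = 4.99e-16). The part of cell cycle phase in the levels of the MCM genes was not tested.

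Relatives and partners of the family outside the members differed little. MCM3AP, which is named for its binding of MCM3 and acts in mRNA export, rose from 8.07 ± 0.280 to 9.01 ± 0.341 FPKM (SD, n = 3; log2 fold change 0.16, SE 0.044, edgeR adjusted p = 0.00309). HROB, which stimulates the MCM8 and MCM9 helicase, was not called (log2 fold change 0.16, SE 0.109, edgeR adjusted p = 0.227). MCMDC2, an MCM-like gene of meiosis, lay at 0.02 to 0.11 FPKM and was not tested.

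The genes whose profile was most like the ring were sought among 6742 genes with a mean of at least 5 FPKM. Likeness was the root mean square difference from the mean centred log2 CPM of MCM2 to MCM7 over the 6 libraries. CPM are counts scaled to the library total of the tested genes after TMM adjustment. By this measure, genes with a similar step between the groups come first. XRCC6, the Ku70 subunit of the DNA end-binding complex, was nearest at 0.025, with 173 ± 4.80 FPKM in control libraries and 342 ± 9.34 FPKM after knockdown (SD, n = 3). POP1, a subunit of RNase P, followed at 0.027, the chaperone HSP90AB1 at 0.029, the nucleolar factor TCOF1 at 0.035 and the histone methyltransferase EHMT2 at 0.037. All 5, picked as the nearest of the 6742 genes, lay closer to the mean of the ring than any ring gene did. The nearest ring genes were MCM3 at 0.040 and MCM2 at 0.058. MCM6 stood at 0.12, MCM4 at 0.21, MCM5 at 0.28 and MCM7 at 0.36, and MCM9 at 0.51 was the member farthest away. Since the ring genes ran in log2 fold change from 0.24 (MCM7) to 1.51 (MCM5), nothing is read from the nearness of the picked genes. Rows named as pseudogenes held 0.229% as many counts as HSP90AB1 and 0.0110% as many as XRCC6.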

How the data were processed

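Per the labels' protocols, poly(A) RNA of 6 HCT116 libraries (3 per group) was made into directional libraries. Per the submitters' processing notes, bcl2fastq 2.20.0.422, FastQC 0.10.1, cutadapt 1.9.1, HISAT2 2.2.1 and HTSeq 0.6.1 were used with GRCh38.p13. The annotation release and the use of strand are not given in the sources used here. Per the file headers, the authors deposited raw counts, FPKM values and an exonic size for each of 61806 genes. The deposited FPKM equalled counts divided by size and column total, within 0.005. Coordinates are those of the deposited table, and promoters are from RefSeq.

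Counts were tested in R 4.3.3 with edgeR 4.0.16 (filterByExpr with minimum count 10, TMM, quasi-likelihood F test, 2-sided, group as the only term), with Benjamini-Hochberg adjustment over the 15687 genes tested. Each standard error was taken as the size of the log2 fold change over the root of its F statistic. Alternatives used DESeq2 1.42.0 and limma 3.58.1, other scaling and filters, a replicate block, and each library left out. The edgeR fit was also run on simulated counts in which few genes changed and each library was drawn independently. Nothing is read from that run about the p-values here.

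The members, lists, tests and the rule for named genes were chosen with earlier results of these data known. The rule named all members, STRIP2, the largest called rise and fall of each replication list and of the regulator and mitosis lists (not of the marker lists), all head-to-head partners, MCM relatives, overlapping genes with at least 10% as many counts, and the 5 genes of most similar profile.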

Additional observations from a re-analysis of the deposited data

How the results depend on the processing

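As a description, 8 members lay past the threshold under each of the 14 alternatives, and all 8 were higher. In the main fit 54.8% of all genes tested were called. That share was not taken under the alternatives, so the counts given here have no background beside them. The median log2 fold change of MCM2 to MCM7, reported as 0.93, was 0.90 to 0.95 over them. For the 44 single genes with fits, 584 of 607 values under alternatives kept both direction and call, 21 calls were lost (9 each for FAF1 and POLD4, 2 for KRT20, 1 for AP4M1) and 1 was gained (ENSG00000253194). MCM9, not called in any fit, had a log2 fold change of 0.0086 without si-STRIP2 replicate 1, against -0.07. Called genes of the replication lists numbered 37 to 45 (57 or 58 tested), and called partners 2 to 4 (5 or 6 tested). The labels do not say whether same-numbered libraries share a batch. Deviations of these libraries from the group means correlated at -0.101, -0.0096 and -0.126, and no library correlated best with its own number. With the replicate block, the counts were 8 members, 40 genes of the replication lists and 3 partners, and the median of MCM2 to MCM7 was 0.93. The 40 genes were 37 higher and 3 lower, against 44 without the block, 39 higher and 5 lower. Among the 44 single genes with fits, the block took the call of FAF1 (edgeR adjusted p = 0.0625) and of POLD4 (edgeR adjusted p = 0.0683). The order of levels in si-NC was the same in TPM, but with wider spread, so that MCMBP and MCM3, MCM3 and MCM6, and MCM4 and MCM10 overlapped. In si-NC, principal transcript lengths exchanged MCM2 with MCM4 and MCM8 with MCM9. At 337 to 493 counts per library, MCM9 and MCM8 were the least precisely measured members.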

Other observations

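The pathway and ontology terms that the deposited table gives to the MCM genes were uneven. Of the 6 ring genes, 5 carried the pathway term DNA replication, and MCM5, the ring gene with the highest log2 fold change, carried no pathway term. MCMBP carried the terms Lysosome, Phagosome and Apoptosis and not DNA replication, although its ontology terms name DNA replication. An ontology process naming DNA replication was given to 9 of the 10 members, MCM8 being the exception, and one naming homologous recombination to MCM8 and MCM9.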
